A study of Mus musculus with 13 samples.

Results

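The genes of mouse chromosome 10 were followed along the chromosome, from its first to its last expressed gene, in embryonic fibroblasts of the mouse (MEFs), grown as primary cultures or as lines that had immortalized spontaneously. A gene was a member if the annotation placed it on chromosome 10 and if it reached at least 1 CPM (a gene's counts divided by the library's total, scaled to 1000000) in all 6 primary libraries. Of the 2622 chromosome 10 genes in the count tables, 707 met this rule, out of 14175 autosomal genes that passed the same minimum and 55487 genes in all. Of the other chromosome 10 genes, 842 had no count in any library and 1073 had counts but fell short. Txlnb lay just inside the limit, with 1.02 CPM in its lowest primary library, and Cdk19os just outside, with 0.996 CPM. The members start between positions 3740364 and 130412499 of the GRCm38 (mm10) assembly.

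The study grew WT primary MEFs, numbered as clones 3, 4 and 5, and Prkd3-/- primary MEFs, labelled clones 13, 14 and 15, in medium with 10% fetal calf serum. Cells passaged to senescence were moved to 20% serum, and the colonies that outgrew became immortalized lines, which the study's methods, written for WT, say were then grown in 10% serum again. WT gave lines 3, 4 and 5, and Prkd3-/- gave lines 13, 13a, 14 and 15, of which 13 and 13a carry the number of the same primary clone. Per the study's methods the WT primary cells came from 3 embryos; the age and strain of the embryos and the source of the Prkd3-/- cells are not given in the sources used here. Each line is 1 culture with 1 poly-A library, so 3 WT and 4 Prkd3-/- lines are compared with 3 primary libraries of each genotype. The medium also held non-essential amino acids, antibiotics and β-mercaptoethanol. How the Prkd3 allele was made is not given in the sources used here, and Prkd3 was still counted at 33.9 to 64.0 CPM in the Prkd3-/- libraries, against 66.0 to 84.3 CPM in WT. The name Prkd3-/- therefore refers to the label.

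Chromosome 10 of the mouse carries cell-cycle and growth genes such as Cdk4, Mdm2 and Hmga2, the matrix genes Lum, Dcn and Col10a1, and many housekeeping genes. Serially passaged mouse fibroblasts are known for losing and gaining chromosomes as they become permanent lines, and a gene's transcript level can follow its number of DNA copies, though many genes are buffered or regulated in other ways. DNA copy number was not measured here, and its part in the values below was not tested.

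The libraries held between 35273408 and 100441756 counts, so that 3 counts corresponded to 0.0299 to 0.0850 CPM, and this floor covers counting error only. The 10 fibroblast markers were over 1 CPM in every library. The 14 macrophage markers together ran from 1691 to 1741 CPM in WT primary libraries, from 59.8 to 173 CPM in WT lines, from 192 to 2467 CPM in Prkd3-/- primary libraries and from 16.2 to 402 CPM in Prkd3-/- lines. The 3 WT primary libraries were nearer to each other than any other pair of one group, with a median chi-square per gene of 1.53 to 1.98, against 6.15 to 152 for the other pairs. Each of them held both Xist, at 44.4 to 56.4 CPM, and the Y-linked Ddx3y, at 52.1 to 64.6 CPM. Xist is transcribed from the inactive X of female cells, so each WT primary library held a transcript typical of female cells and one typical of male cells, and how the 3 embryos contribute to it was not tested. The Prkd3-/- primary libraries had 0 to 0.0587 CPM of Xist and 63.0 to 92.1 CPM of Ddx3y.

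Promoters of 4 members are shown because these genes stand for the patterns described below. Cdk4 and Rps26 lay above the chromosome's median in line 4. Lyz2 and Col10a1 were at least 2-fold lower in all 7 lines, each set against the mean of the primary libraries of its genotype. The sequences are from RefSeq (GRCm38.p6), from 250 bases before the gene's start to 50 after it, written 5′ to 3′ on the gene's strand, with each CG dinucleotide in capitals. CG reads the same on both strands.
Cdk4, chr10:127063285-127063584, plus strand, 22 CG: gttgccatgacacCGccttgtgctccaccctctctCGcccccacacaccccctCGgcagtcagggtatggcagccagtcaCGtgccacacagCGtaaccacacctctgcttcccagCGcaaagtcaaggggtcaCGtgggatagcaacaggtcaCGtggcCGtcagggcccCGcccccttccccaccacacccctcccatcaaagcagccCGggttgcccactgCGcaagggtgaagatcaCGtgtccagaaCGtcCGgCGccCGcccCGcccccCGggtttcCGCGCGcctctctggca
Rps26, chr10:128626457-128626756, minus strand, 16 CG: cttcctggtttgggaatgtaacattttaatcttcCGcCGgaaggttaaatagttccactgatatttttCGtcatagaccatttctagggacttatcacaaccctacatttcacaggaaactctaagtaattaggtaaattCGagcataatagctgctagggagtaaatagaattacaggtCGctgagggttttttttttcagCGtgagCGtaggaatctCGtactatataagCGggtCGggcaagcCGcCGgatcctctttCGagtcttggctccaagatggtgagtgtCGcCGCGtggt
Lyz2, chr10:117282223-117282522, minus strand, 1 CG: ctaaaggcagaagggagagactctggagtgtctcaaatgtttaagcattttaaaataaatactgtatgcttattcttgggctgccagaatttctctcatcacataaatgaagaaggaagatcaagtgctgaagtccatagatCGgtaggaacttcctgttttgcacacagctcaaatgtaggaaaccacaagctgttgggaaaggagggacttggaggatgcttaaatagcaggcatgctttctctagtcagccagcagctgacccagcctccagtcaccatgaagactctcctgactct
Col10a1, chr10:34389731-34390030, plus strand, 6 CG: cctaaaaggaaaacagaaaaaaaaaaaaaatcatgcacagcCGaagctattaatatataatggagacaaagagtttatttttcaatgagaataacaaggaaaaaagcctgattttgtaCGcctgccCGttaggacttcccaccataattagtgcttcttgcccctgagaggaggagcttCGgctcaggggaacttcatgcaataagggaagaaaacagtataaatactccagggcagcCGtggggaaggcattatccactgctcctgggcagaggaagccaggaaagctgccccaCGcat

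The shift of a chromosome was measured in each line as the median of its genes' log2 ratios. A log2 ratio set the CPM of a line against the mean CPM of the primary libraries of its genotype, with 0.1 CPM added to both, and the median ratio of all autosomal genes was subtracted. The members and the part of the chromosome were chosen by these measured values, so the shifts are given as a description, with no test. Line 4 had the highest shift of chromosome 10, with a median log2 ratio of 0.45, a 1.37-fold level. The others were 0.00 in line 3, 0.23 in line 5, 0.01 in line 13, 0.13 in line 13a, 0.10 in line 14 and 0.28 in line 15. Each primary library was set in the same way against the other 2 of its genotype, and their shifts lay between -0.02 and 0.02.

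Chromosome 10 ranked 1st of the 19 autosomes in lines 4 and 5, where the highest other autosomes stood at 0.19 and 0.18. It ranked 2nd in line 15, behind chromosome 6 at 0.56, 4th in line 13a and 6th in line 14. In line 3 it was 13th and in line 13 it was 9th, both within 0.02 of the autosomal median. The lowest other autosomes lay between -0.19 and -0.64 across the 7 lines. Chromosome 10 took 5.36 to 5.44% of the autosomal counts in the primary libraries. Its share was 7.07% in line 4, 6.47% in line 5, 6.88% in line 15, 6.50% in line 14 and 6.19% in line 13a, and it was 5.27% in line 3 and 5.53% in line 13.

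**Figure D1:**
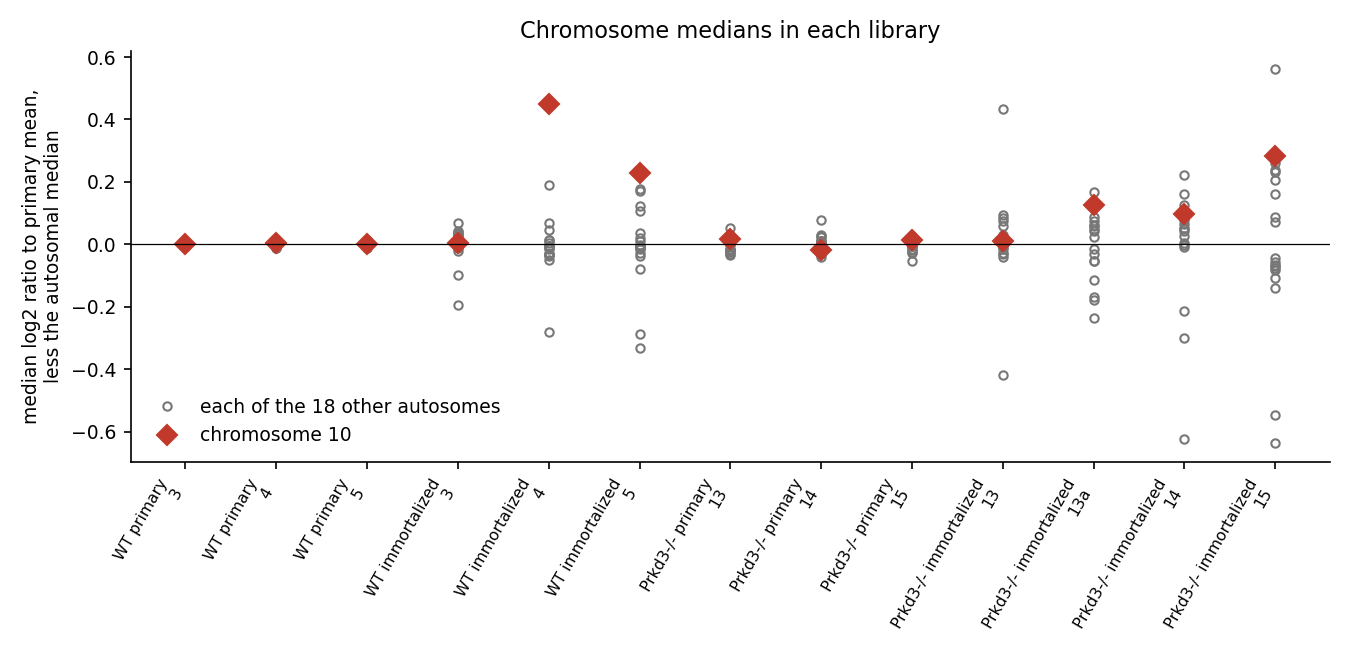
Median log2 ratio of each autosome to the primary mean, less the median of all autosomal genes (vertical axis), in each of the 13 libraries (horizontal axis). Diamonds are chromosome 10 and circles the 18 other autosomes. Chromosome 10 is the highest point in WT lines 4 (0.45) and 5 (0.23) and lies at the autosomal median in line 3.

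To follow the shift along the chromosome, the members were put in order of their start and divided into 14 blocks of 50, the last of 57. In line 4 the shift ran nearly the length of the chromosome. All 14 block medians were above 0, and 13 of them lay above every WT primary library. The highest was 0.67 in block 13, from 4932442E05Rik to the folate enzyme gene Shmt2, at 118.86 to 127.52 Mb, the block that also holds Cdk4 and Hmga2. The lowest was 0.00 in block 2, from Gm8355 to Arhgap18, and the next lowest was 0.28 in block 1.

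Line 5 was lower and, in blocks of 50, more even. Its 14 block medians ran from 0.12 in block 2 to 0.28 in block 1, all above every WT primary library, with a standard deviation of 0.05 over blocks against 0.16 in line 4. With blocks of 25 members the lowest block fell to -0.28 in line 5 and to -0.30 in line 4, so that neither line was above 0 in every block at that size. In line 3 the medians ran from -0.05 to 0.13, and 7 of 14 were above 0. The WT primary libraries themselves stayed between -0.03 and 0.05 in all 14 blocks.

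Among the Prkd3-/- lines, line 15 had all 14 blocks above 0, from 0.01 in block 2 to 0.52 in block 10, at 82.59 to 88.44 Mb, while its lowest block of 25 members was at -0.05. Line 13a had 13 blocks above 0, from -0.03 in block 2 to 0.23 in block 9. In line 14 the medians ran from -0.14 in block 12 to 0.31 in block 9, with 10 above 0. Line 13 had neighbouring blocks on opposite sides, 0.34 in block 12 and -0.31 in block 13, and a chromosome median near 0. The Prkd3-/- primary libraries spread more than the WT ones, from -0.16 to 0.20, and 13 blocks of line 15 lay above all 3 of them, against 6 in line 13, 10 in line 13a and 7 in line 14.

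The same blocks of 50 were built on the 18 other autosomes, 269 in all, to show how far a block median strays elsewhere. In line 4, 13 of the 14 chromosome 10 blocks lay above the 95th percentile of those blocks, 0.16. In line 5, 11 blocks lay above theirs, 0.19. The count was 5 in line 13a, 2 in line 15, where the 95th percentile was 0.42, 1 each in lines 13 and 14, and 0 in line 3. Chromosome 10 was chosen by such block medians, so these counts are a description and no test.

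**Figure D2:**
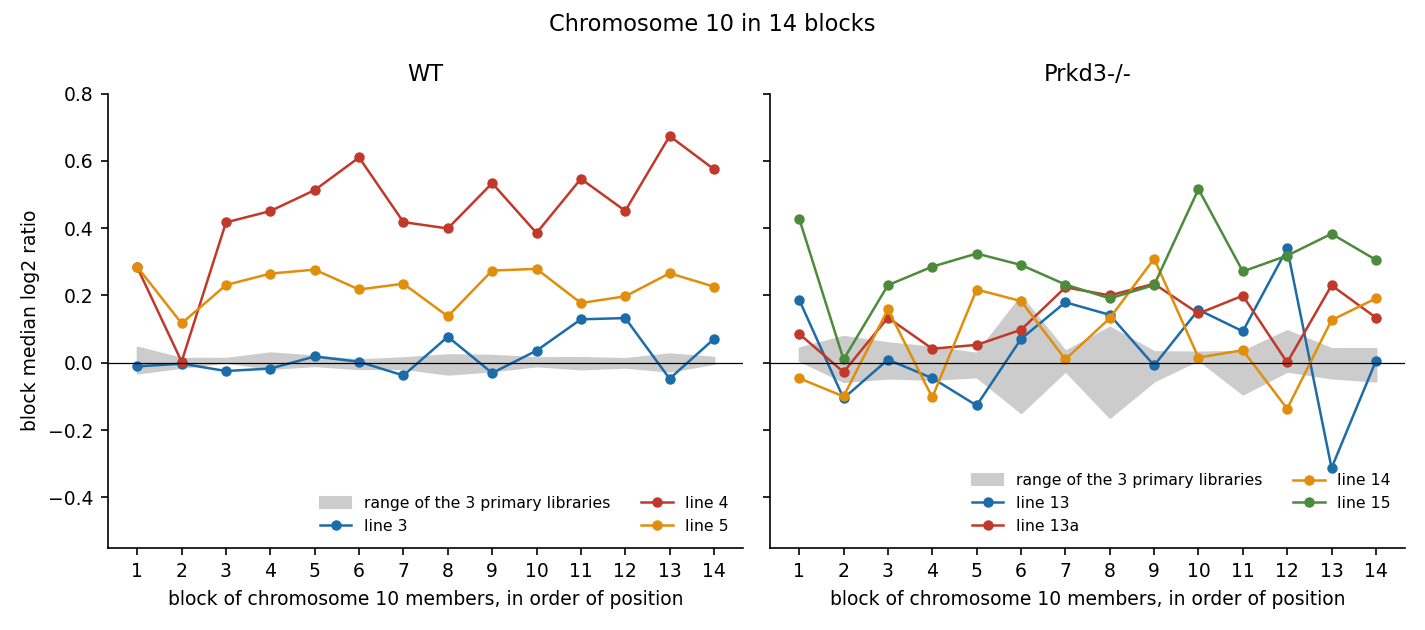
Median log2 ratio (vertical axis) of the 14 blocks of chromosome 10 members in order of position (horizontal axis), for the WT lines on the left and the Prkd3-/- lines on the right. The grey band is the range of the 3 primary libraries of that genotype. Line 4 leaves the band in 13 blocks and returns to it, at 0.00, in block 2.

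The shift of line 4 was shared by members at all levels of change. Its 10th, 25th, 75th and 90th percentiles lay 0.45, 0.46, 0.49 and 0.46 above those of the other autosomal genes, beside 0.47 for the median. In line 5 the same differences were 0.16, 0.26, 0.23 and 0.28, and in line 15 they were 0.37, 0.39, 0.24 and 0.16, larger on the low side. In line 3 the differences from the 25th to the 90th percentile were within 0.02 of 0, and only the 10th percentile was lower, by -0.15.

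In line 4, 506 of the 707 members exceeded all 3 WT primary libraries in CPM, beside a background of 27.2% of all autosomal genes. The count was 210 in line 3, beside a background of 29.3%, and 455 in line 5, beside 36.7%. For the Prkd3-/- lines it was 300 in line 13, beside 39.7%, 280 in line 13a, beside 27.7%, 304 in line 14, beside 36%, and 405 in line 15, beside 33.5%. These counts come from the same values as the rule and are given only to show how many members carry each shift.

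**Figure D3:**
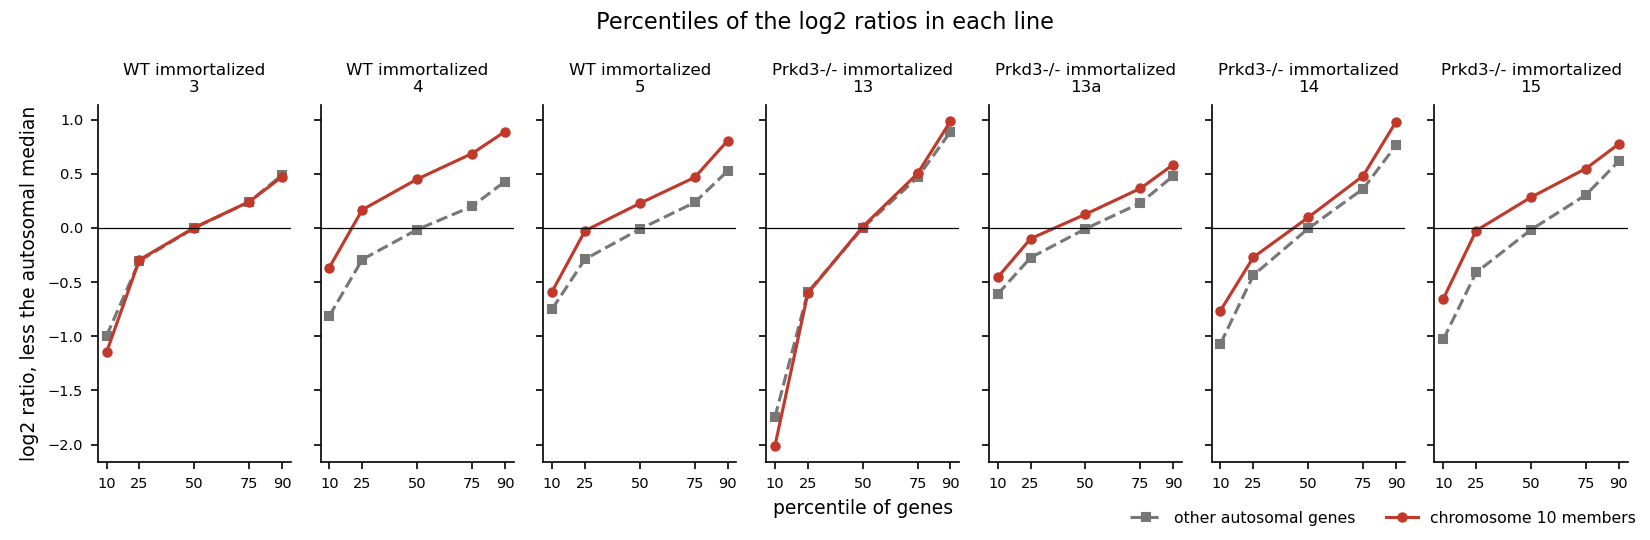
Log2 ratios (vertical axis) at the 10th, 25th, 50th, 75th and 90th percentile (horizontal axis) of the chromosome 10 members (solid line) and of the other autosomal genes (dashed line), 1 panel per line. In line 4 the solid line runs 0.45 to 0.49 above the dashed one at all 5 percentiles, and in line 3 the lines coincide from the 25th percentile upward.

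The median of line 4 was above 0.3 at every level of expression, on both strands and in every class of exon length. By quartile of the mean primary level, which the rule also used, from the lowest, at 1.30 to 9.61 CPM, to the highest, at 67.3 to 3145 CPM, the median of line 4 was 0.37, 0.44, 0.44 and 0.54. By strand it was 0.43 for 361 members on the plus strand and 0.49 for 346 on the minus strand. By quartile of total exon length it was 0.39, 0.51, 0.50 and 0.43. The 595 protein-coding members had a median of 0.48 and the 54 long non-coding RNAs 0.49.

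The processed pseudogenes, retrotransposed copies of transcripts from genes often located elsewhere, stood apart. The 40 pseudogene members had a median of 0.10 in line 4, 0.03 in line 5 and 0.06 in line 15, where the protein-coding members had 0.48, 0.25 and 0.29. The 850 processed pseudogenes on the other autosomes had 0.06, 0.00 and -0.04 in these lines. In line 13 the pseudogene members were at 0.33 and those of the other autosomes at 0.29. Reads of such copies are hard to tell from those of the parent gene, so their counts are uncertain, and the source of these reads was not tested.

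For 408 members the promoter was listed once in RefSeq. Of these, 407 held a CG dinucleotide in the window of 300 bases, as did 94.0% of all 21717 autosomal promoters listed once. The observed number of CG over that expected from the C and G content had a median of 0.81 in the members and 0.38 in all autosomal promoters. The autosomal set was taken without the minimum of 1 CPM. The 2 sets thus differ in expression as well as in chromosome, and which of these the differences follow was not tested. Line 4 had a median of 0.44 for the 40 members with a ratio up to 0.4, 0.43 for 44 members at 0.4 to 0.6, 0.48 for 113 at 0.6 to 0.8 and 0.53 for 211 over 0.8. In line 13 the same classes had -0.33, -0.30, 0.10 and 0.26. The 4 promoters printed above have ratios of 0.70 (Cdk4), 1.10 (Rps26), 0.07 (Lyz2) and 0.41 (Col10a1). The promoters of the other members that were at least 2-fold lower in all 7 lines spread widely, from 0.15 for C920009B18Rik to 0.91 for Cpm.

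The dip of block 2 was examined member by member, as chosen after the block medians were seen. In line 4, 25 of its 50 members were above 0, with a lower quartile of -0.70 and an upper quartile of 0.38, against 38 to 52 members above 0 in each of the other blocks. Members above and below 0 lay in short runs and singly along the block. Arfgef3 stood at -4.12 and its neighbour Perp, a p53 target of cell junctions, at -1.50, whereas Hbs1l stood at 0.65, the ribosomal protein gene Rps12 at 0.75 and Eya4 at 1.79. The first 25 members had a median of 0.08 and the last 25, from Raet1e to Arhgap18, one of -0.30, of which 8 were at least 2-fold lower. The median of the last 25 was below 0 in all 7 lines, though barely so in some. It was -0.28 in line 5, -0.31 in line 13, -0.10 in line 14, -0.05 in line 15, -0.02 in line 13a and -0.0045 in line 3. Another block of 25 on the chromosome was lower in lines 3 (-0.22), 13 (-0.58), 13a (-0.10) and 14 (-0.37).

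The median of block 2 in line 4, though -0.30 in its last 25 members, stayed near 0 under filters applied to the whole block. It was -0.04 for the 40 protein-coding members, 0.08 for the 38 with at least 5 CPM in all 6 primary libraries and -0.05 for the 33 that share no exon bases with another gene. The lowest block median of line 4 depended on where the blocks were drawn. When the chromosome was divided anew into blocks of 50, so that both the members and the block limits changed, the lowest of 11 blocks stood at 0.25 with the minimum of 5 CPM, and the lowest of 8 blocks at 0.22 without shared exon bases.

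**Figure D4:**
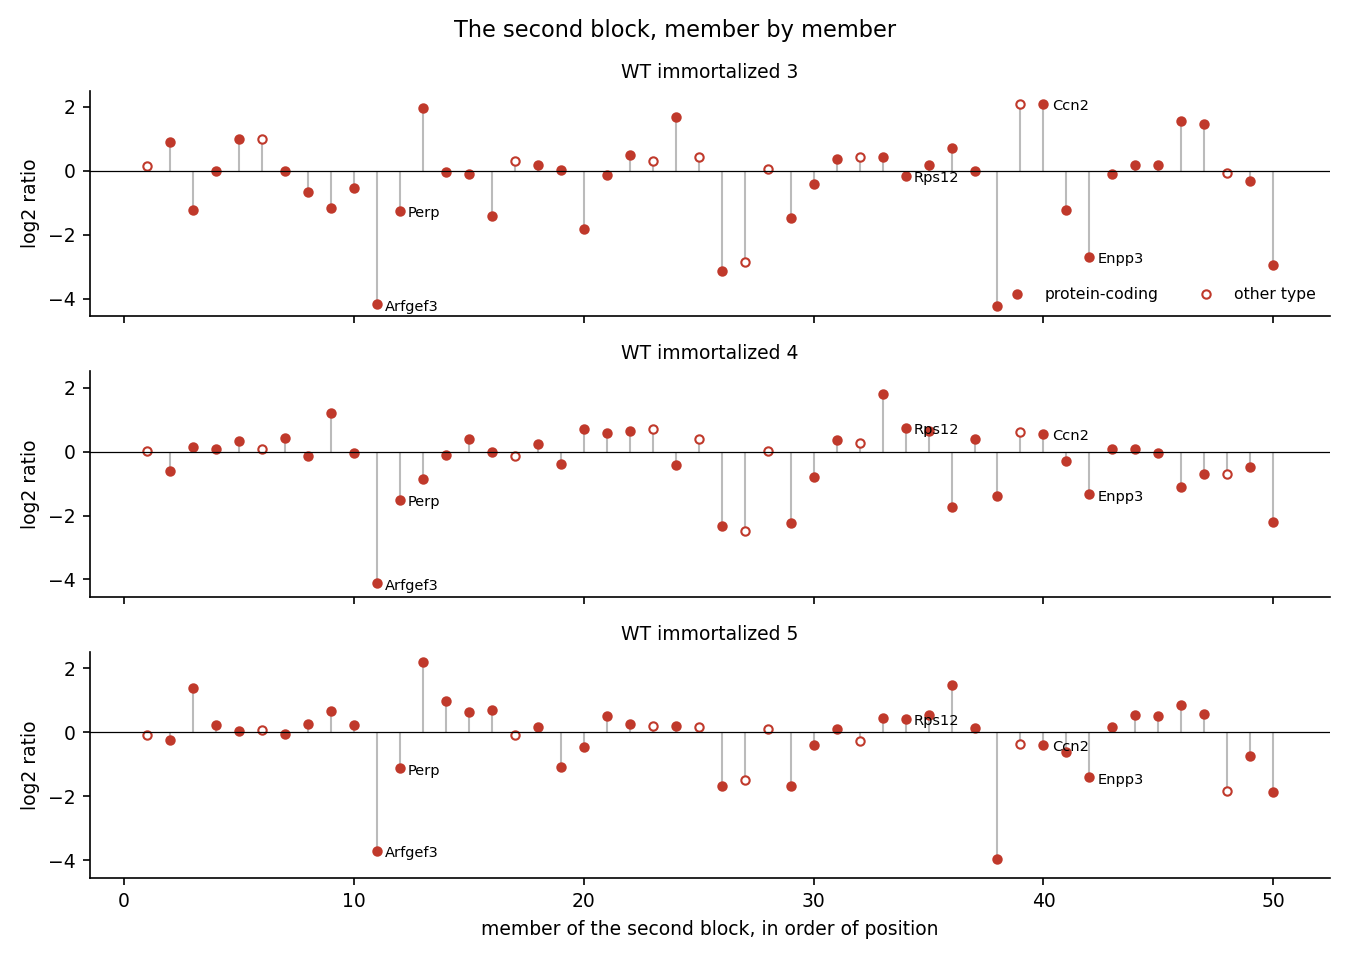
Log2 ratio (vertical axis) of each of the 50 members of block 2 in order of position (horizontal axis) in the 3 WT lines, with protein-coding members filled and others open. In line 4 members such as Rps12 (0.75) lie above 0 and Arfgef3 (-4.12), Perp (-1.50) and Enpp3 (-1.33) below it.

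The 5 lists of chromosome 10 genes were each described by its count and its median beside that of all members. Of the 21 members of the list for translation, mitochondria and metabolism, 20 were above 0 in line 4 (median 0.54 against 0.45 for all members) and 20 in line 5 (0.35 against 0.23). The pseudogene Rpl32l was the exception in both, at -0.15 and -0.08. Lines 13a and 15 had 18 of 21 above 0, with medians of 0.29 and 0.28. In line 3 the count was 13, with a median of 0.14, in line 13 it was 15, with 0.36, and in line 14 it was 14, with 0.16.

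Rps26, a protein of the small ribosomal subunit, had 148, 148 and 150 CPM in WT primary clones 3, 4 and 5. It had 181, 249 and 212 CPM in WT lines 3, 4 and 5. In the Prkd3-/- primary clones 13, 14 and 15 it had 168, 192 and 165 CPM, and in lines 13, 13a, 14 and 15 it had 202, 222, 229 and 211 CPM. All 7 lines were above all 3 primary libraries of their genotype, and line 4 was the highest.

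The list of chromatin and transcription genes also followed the chromosome in line 4, with 16 of 17 members above 0 and a median of 0.51. Line 15 had 15 of 17 above 0, with 0.38. The medians were 0.03 in line 3, 0.17 in line 5, 0.22 in line 13, -0.02 in line 13a and 0.21 in line 14. Hdac2, a histone deacetylase, had 113, 114 and 104 CPM in the WT primary libraries and 105, 162 and 134 CPM in lines 3, 4 and 5. In the Prkd3-/- primary libraries it had 111, 115 and 106 CPM, and in lines 13, 13a, 14 and 15 it had 175, 120, 127 and 141 CPM. Line 3 lay among the WT primary libraries and the other 6 lines above those of their genotype. Tet1, which oxidizes methylated cytosine, ranged more widely, from -2.95 in line 13 to 2.49 in line 14.

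Cell cycle, p53 and growth control genes were divided. In line 4, 18 of 25 members were above 0, with a median of 0.37 against 0.45 for all members, and line 15 had 21 of 25, with 0.54 against 0.28. Line 5 had a median of 0.20, line 13 one of 0.12, and lines 3, 13a and 14 were between -0.03 and 0.02. Cdk4, the kinase that drives cells into S phase with D-type cyclins, had 300, 298 and 295 CPM in the WT primary libraries and 272, 430 and 321 CPM in lines 3, 4 and 5. In the Prkd3-/- primary libraries it had 353, 411 and 326 CPM, and in lines 13, 13a, 14 and 15 it had 466, 521, 393 and 520 CPM. Line 3 was below the WT primary libraries, lines 4 and 5 above them, and line 14 within the range of the Prkd3-/- ones. Cdk4 shares 19.7% of its exon bases with other genes, and strand was not used in counting.

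Mdm2 and Hmga2 did not keep to the level of their neighbours. Mdm2, the ubiquitin ligase that degrades p53, had 167, 168 and 157 CPM in the WT primary libraries and 108, 130 and 186 CPM in lines 3, 4 and 5. Its Prkd3-/- primary values were 144, 305 and 195 CPM, and lines 13, 13a, 14 and 15 had 81.1, 141, 104 and 447 CPM. Line 15 was above all of its primary libraries and the other 3 Prkd3-/- lines below them. Hmga2, an architectural chromatin protein of embryonic cells, had 495, 479 and 543 CPM in the WT primary libraries and 420, 240 and 159 CPM in lines 3, 4 and 5, all lower. In Prkd3-/- cells it went from 767, 414 and 951 CPM in the primary libraries to 621, 701, 118 and 829 CPM in lines 13, 13a, 14 and 15, where line 14 alone left the range.

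Signalling genes had medians near that of the chromosome in line 4 and above it in line 5. In line 4, 14 of 22 members were above 0, with a median of 0.40 against 0.45 for all members, and in line 5, 16 of 22, with 0.40 against 0.23. Line 13 had a median of -0.75, with 10 members at least 2-fold lower, and the other lines were between -0.03 and 0.17. Map2k2, a kinase of the ERK cascade, followed the chromosome in line 4, where it had 152 CPM against 102 to 106 CPM in the WT primary libraries. Line 3 had 117 CPM and line 5 had 129 CPM. Socs2, a feedback inhibitor of cytokine receptors, had 2.41, 3.08 and 3.36 CPM in the WT primary libraries, 0.853 CPM in line 3, 30.6 CPM in line 4 and 29.8 CPM in line 5. Its Prkd3-/- values were 17.0, 8.02 and 12.4 CPM before and 4.71, 26.3, 34.5 and 4.22 CPM after immortalization in lines 13, 13a, 14 and 15. Lines 3, 13 and 15 were thus below and lines 4, 5, 13a and 14 above the primary libraries of their genotype.

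Matrix and fibroblast genes had medians below that of all members in 6 of the 7 lines, line 13a being the exception. In line 4, 10 of 21 members were above 0, with a median of -0.09 against 0.45 for all members. Line 3 had 4 of 21 above 0, with a median of -0.76, and line 13 had 2, with -0.85. The medians of lines 5, 14 and 15 were 0.02, -0.04 and -0.33. In line 13a 13 of 21 were above 0, with a median of 0.21 against 0.13 for all members. The list includes Itgb2, a leukocyte gene described with the macrophage markers below, which was its lowest member in lines 13 and 14.

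Lum and Dcn, neighbouring genes for small proteoglycans that bind collagen fibrils, differed from line to line. Dcn had 128, 134 and 125 CPM in the WT primary libraries and 0.593, 138 and 441 CPM in lines 3, 4 and 5. In the Prkd3-/- primary libraries it had 10.1, 32.9 and 4.08 CPM, and in lines 13, 13a, 14 and 15 it had 0.380, 212, 98.1 and 0.715 CPM. Lines 3, 13 and 15 were below 1 CPM, and lines 4, 5, 13a and 14 exceeded every primary library of their genotype. Lum had 194, 195 and 166 CPM in the WT primary libraries and 0.0434, 84.0 and 11 CPM in lines 3, 4 and 5, where the value of line 3 is at its floor of 3 counts. In Prkd3-/- cells Lum had 54.4, 13 and 10.5 CPM before and 1.56, 75.3, 6.52 and 0.303 CPM after, in the same order of lines.

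Col10a1, a collagen of hypertrophic cartilage, had 130, 134 and 126 CPM in the WT primary libraries and 2.69, 3.71 and 12.0 CPM in lines 3, 4 and 5. Its Prkd3-/- primary values were 68.4, 3.70 and 52.3 CPM, and lines 13, 13a, 14 and 15 had 0.513, 1.05, 1.88 and 11.6 CPM. All WT lines were below the WT primary libraries, and line 15 lay within the range of the Prkd3-/- ones.

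**Figure D5:**
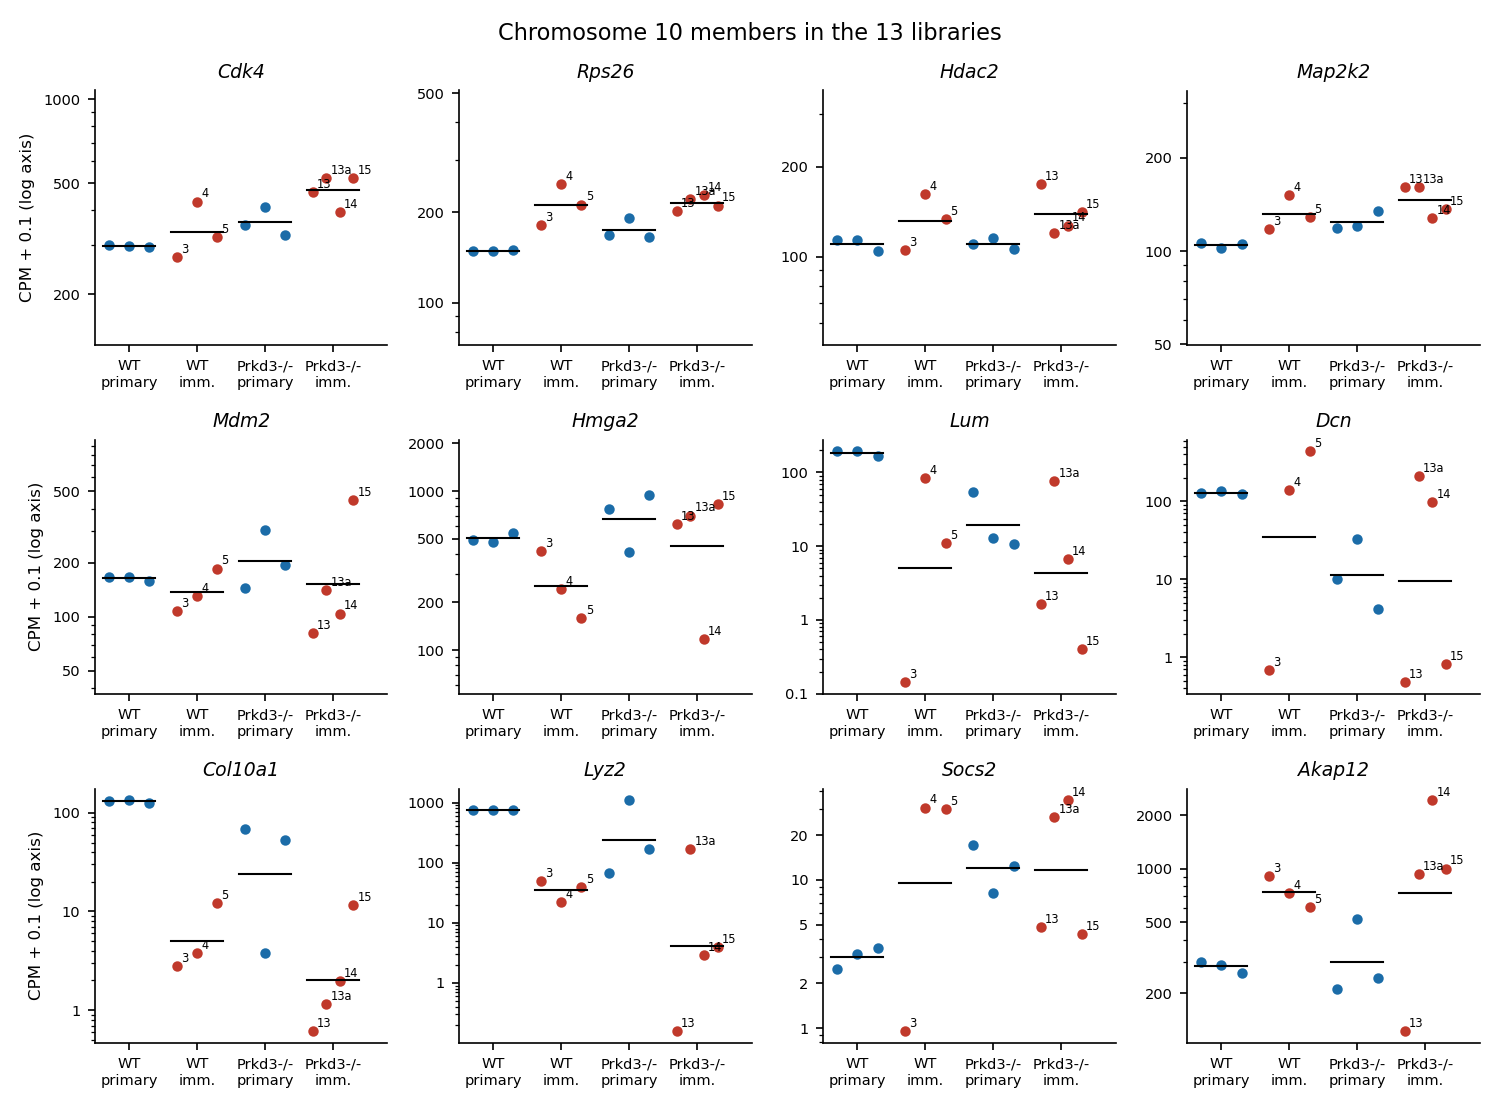
CPM plus 0.1 on a log axis (vertical) of 12 chromosome 10 members in the 4 groups (horizontal, imm. for immortalized), with 1 point per library, the line number beside each immortalized point and a bar at the mean of the log values. Rps26 is above the primary libraries in all 7 lines, and Lyz2 lies between 21.8 and 49.5 CPM in the WT lines against 739 to 751 CPM in their primary libraries.

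Among the WT lines, 268 members were above 0 in all 3, beside a background of 20.2% of autosomal genes, and 65 were below 0 in all 3, beside 20.7%. Among the 4 Prkd3-/- lines, 120 members were above 0 in each, beside 10.8%, and 43 below 0 in each, beside 11.8%. The 5 WT members with the largest mean rise were Akap12, Gm28592, Phlda1, Rgs17 and Chst11, of which Gm28592 shares 98.1% of its exon bases with another gene. In Prkd3-/- lines they were Sobp, Tmpo, Slc19a1, Mdm1 and Eif4ebp2. Akap12, a scaffold for protein kinase A, had 301, 287 and 260 CPM in the WT primary libraries and 907, 728 and 609 CPM in lines 3, 4 and 5. Tmpo, a lamina protein also made in dividing cells, had 111, 94.5 and 104 CPM in the Prkd3-/- primary libraries and 313, 134, 167 and 242 CPM in lines 13, 13a, 14 and 15.

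At the other end, 6 members were at -1 or less in all 7 lines, beside a background of 1.26% of autosomal genes: Arfgef3, C920009B18Rik, Col10a1, Cpm, Lrrc3 and Lyz2. Lyz2, the lysozyme of macrophages, had 751, 743 and 739 CPM in the WT primary libraries and 49.5, 21.8 and 38.7 CPM in lines 3, 4 and 5. In the Prkd3-/- primary libraries it had 68.3, 1098 and 170 CPM, and in lines 13, 13a, 14 and 15 it had 0.0570, 166, 2.84 and 3.88 CPM. The lines did not overlap the primary libraries in WT. In Prkd3-/- line 13a did, and its 166 CPM was above the 68.3 CPM of primary 13, which carries the same clone number. The value of line 13 is at its floor of 3 counts.

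Lyz2 is 1 of the 14 macrophage markers, whose summed levels are given above and moved in the same direction in WT. In Prkd3-/- the summed levels of the lines, 16.2 to 402 CPM, overlapped those of the primary libraries, 192 to 2467 CPM. Itgb2, the leukocyte integrin, and Lilrb4a, a myeloid inhibitory receptor, moved with these markers in WT, with mean log2 ratios of -3.42 and -4.27. All 14 markers were over 1 CPM in every primary library, against 10 in every WT line and 2 in every Prkd3-/- line. In bulk libraries, fewer cells of a type and less RNA per cell cannot be told apart, and the part of such cells in these members' values was not tested.

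The fits across all genes used the same contrast as the rule and are given for completeness, with nothing read from them. With edgeR's quasi-likelihood test, at an adjusted p under 0.01 and a |Log2FC| of at least 1, 1 member was called higher in WT lines, beside a background of 0.0605%, and 7 lower, beside 1.76%. The member called higher was Chst11, a chondroitin sulfotransferase, and those called lower were Arfgef3, Arhgap45, Gm49339, Lilrb4a, Lyz2, Perp and Slc16a10. Gm49339 shares 98.9% of its exon bases with another gene. With the clone number as a replicate block, 0 of the 8 passed, beside 0% of all genes tested. Leaving out 1 line at a time, 24 members were called without line 3, 13 without line 4 and 19 without line 5. Of these, 16, 2 and 3 were higher. The genes called in all were 539, 361 and 743, or 2.65%, 1.77% and 3.66% of those tested, with 81, 33 and 38 higher. In the Prkd3-/- lines 0 members were called, beside a background of 0% in either direction. DESeq2 called 1 member there, beside 0.547% of all genes tested.

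The primary libraries of the genotypes were also compared with each other. The rule used their levels, in the minimum of 1 CPM and as the denominators of the ratios, but not the difference between the genotypes. The tables of the genotypes were counted separately, and genotype and table cannot be told apart. The groups also differed in Xist, at 44.4 to 56.4 CPM in WT and 0 to 0.0587 CPM in Prkd3-/- primary libraries. Genotype and this difference in sex-linked transcripts cannot be told apart either. The WT primary libraries were also nearer to each other than the Prkd3-/- ones, as given above, so that the errors and p-values below measure the spread between these libraries, which may be technical in WT. Of the 707 members, 1 was higher in Prkd3-/- primary libraries, beside a background of 0.23%, and 1 was lower, beside 0.534%. Egr2, an early growth response transcription factor, had 5.75, 5.77 and 9.0 CPM in WT and 24.4, 24.4 and 25.6 CPM in Prkd3-/- primary libraries, which do not overlap. Its Log2FC was 1.85 ± 0.20 (SE, n = 3 libraries per group), with an adjusted p of 0.00875 by edgeR. Adamtsl5, a secreted matrix protein, had 37.7, 37.5 and 40.1 CPM in WT and 19.8, 16.6 and 19.0 CPM in Prkd3-/- primary libraries. Its Log2FC was -1.07 ± 0.10 (SE, n = 3 libraries per group), with an adjusted p of 0.00584 by edgeR. DESeq2 called 23 members in this contrast, beside 2.47% of all genes tested. Without Prkd3-/- primary 14, the library with the highest macrophage markers of its group, edgeR called 30, beside 7.13%. Without WT primary 3, WT primary 4 or Prkd3-/- primary 15 it called 0, beside 0.00944%, 0.00975% and 0.354%.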

How the data were processed

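The authors deposited raw counts per gene for poly-A libraries read as pairs of 100 bases. Per the submitters' processing notes, reads were checked with FastQC 0.12.0, aligned to mm10 with STAR 2.7.10a, handled with SAMtools 1.18 and counted with featureCounts of Subread 2.0.6. The WT table's header shows Ensembl GRCm38 genes, read pairs counted without strand and assigned to every gene they overlap. The command behind the Prkd3-/- table is not given in the sources used here. Members, blocks and gene lists were chosen with earlier results of these data known.

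CPM are counts over the library total. Log2 ratios used 0.1 CPM as pseudocount and were centred on the autosomal median of each library. Exon overlaps came from the WT table, gene types from GENCODE M21 and promoters from RefSeq (GRCm38.p6). Each genotype was fitted with edgeR 4.0.16 (TMM, filter on low counts, robust quasi-likelihood) in R 4.3.3, with DESeq2 1.42.0 as an alternative, and medians came from Python 3.11.15. Adjusted p-values are Benjamini-Hochberg over all genes tested. The fits were tested on simulated counts. Named genes are those of 5 lists, the 5 highest and 5 lowest means per genotype among members on the same side of 0 in every line, and the end members of the highest and lowest blocks. Genes called, or at -1 or less in all 7 lines, were added after their values were seen.

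Per the study, WT samples of the same number follow the same embryo, which pairs the libraries by origin. For Prkd3-/- this pairing rests on the numbers in the labels. The correlations of same-numbered deviations were -0.04, 0.04 and -0.05 in WT and 0.16, -0.30 (13a), 0.09 and 0.04 in Prkd3-/-. Pairs with different numbers ran from -0.05 to 0.09 in WT. In Prkd3-/- they ran from -0.32 (primary 14 with line 13) to 0.35 (primary 14 with line 13a). The same-numbered pairs thus did not stand out. Replicates are libraries of separately numbered clones. The WT primary libraries differed little from each other, and p-values measure only the spread between these libraries, which may be technical.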

Additional observations from a re-analysis of the deposited data

Results flagged for a closer look

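Of 135 results checked among the 4 Prkd3-/- lines (the chromosome 10 median, the 14 block medians and the listed members), 5 had 1 line far from the other 3, with a gap to the nearest line, divided by the whole range, above Dixon's 95% critical value for 4 samples. Chance sets about 1 in 20 such groups apart if their samples are independent, and lines 13 and 13a share a clone number. The lines set apart were line 14 for Hmga2, with a log2 ratio of -2.59, and for Rps15, with 0.75, and line 13 for Lrp1, with -1.64, Col18a1, with -0.14, and Pfkl, with 0.35. The chromosome median and all 14 block medians had no line so far from the others. In no result checked did all WT lines lie on one side of 0 and all Prkd3-/- lines on the other.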

How the results depend on the processing

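The chromosome 10 median of each line moved by less than 1 SD of the lines of its genotype under every alternative but one. That SD was 0.22 in WT and 0.11 in Prkd3-/-. It is near the shifts of line 5 (0.23), line 13a (0.13) and line 14 (0.10), so the loss of such a shift could pass as less than 1 SD. Over all alternatives other than that one it stayed between 0.42 and 0.48 in line 4, 0.21 and 0.25 in line 5, 0.26 and 0.31 in line 15, and -0.01 and 0.02 in line 3. The exception, chosen after seeing the data, kept only the processed pseudogenes, which gave 0.10 in line 4, 0.33 in line 13, -0.12 in line 14 and 0.064 in line 15. Line 5 fell to 0.03 with them, which is less than 1 SD away. The highest and lowest block medians moved by over 1 SD in 19 of 182 values, mostly with blocks of 25 members, windows of 10 Mb or no shared exon bases (with blocks of 25 the lowest fell to -0.30 in line 4, -0.28 in line 5 and -0.05 in line 15), and the cause was not tested. The paired values, each line against the primary library of its number as replicate block, gave 0.45 in line 4, 0.23 in line 5 and 0.28 in line 15. They moved no chromosome median by 1 SD.

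Percentages in brackets are the share of all genes tested that were called under the same setting. Counts of members called in WT went from 8 (1.82%) to 20 at an adjusted p under 0.05 (4.38%) and 26 with DESeq2 (4.05%). They fell to 5 with at least 10 counts in every library (0.92%) and to 0 with the clone number as replicate block (0%). The shares of all genes thus moved the same way. Leaving out 1 replicate at a time gave 2 without WT primary 3 (0.237%) or 4 (0.247%) and 3 without WT primary 5 (0.325%). It gave 24 without line 3 (2.65%), 13 without line 4 (1.77%) and 19 without line 5 (3.66%). In Prkd3-/- lines the count of 0 (0%) rose to 1 with DESeq2 (0.547%) and stayed at 0 with the block (0%). Between the primary genotypes the count of 2 (0.765%) went to 14 at an adjusted p under 0.05 (2.98%) and 23 with DESeq2 (2.47%). It was 8 with no filter (0.992%) and 1 with at least 10 counts in every library (0.495%). Leaving out 1 library gave 0 to 30, beside 0.00944% to 7.13% of all genes. With 3 or 4 lines per genotype and 1 library each, a chromosome shift has no replicate within a line. No paired analysis was possible between the primary genotypes because their clones share no number.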

Other observations

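Chromosome 10 genes that fell short of the minimum of 1 CPM in some primary library were also looked up in the lines. Only 4 of the 1073 with counts reached 1 CPM in all 7 lines: A830082N09Rik, Ccdc138, Gm21781 and 1190007I07Rik. All 4 lay near or above the limit in the primary libraries too, with no primary value under 0.776 CPM. Ccdc138, a gene of a coiled-coil protein, had 0.995, 0.938 and 0.776 CPM in the WT primary libraries, 1.21, 1.11 and 1.11 CPM in the WT lines, and 1.47 to 3.19 CPM in the Prkd3-/- lines. The highest such genes differed between lines. Vip, for a neuropeptide, reached 53.1 CPM in line 5, the Wnt inhibitor Wif1 reached 31.0 CPM in line 14, Cdh23, a cadherin, 26.9 CPM in line 15, and Esr1, the estrogen receptor, 17.3 CPM in line 13.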
